A study of Homo sapiens with 2 samples.

Results

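The genes described are the secreted and membrane-bound metalloproteinases of the MMP, ADAM and ADAMTS families and the TIMP inhibitors. They were picked by name, as all probe sets whose single gene symbol starts with MMP, ADAM, ADAMTS or TIMP and a number. The families were chosen with earlier results of these data known. This gave 160 of 49395 probe sets and 64 of 18132 genes, namely 22 MMP, 20 ADAM, 18 ADAMTS and 4 TIMP genes. The study compared H1299, an established line of human non-small cell lung cancer, transfected with a pcDNA3.1 plasmid that carries the transcription factor EGR1, with H1299 cells given the empty pcDNA3.1 plasmid. Both transfections were transient, made with a lipid reagent, and the cells were collected after 48 hours. Each group held 1 Affymetrix array made from 2 µg of total RNA, so there was no replicate error, no test and no p-value, and every difference below describes these 2 arrays. The study's question concerned genes regulated by EGR1 that bear on apoptosis and metastasis of lung cancer cells.

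Metalloproteinases are enzymes that cut proteins with a zinc ion held in the active site. MMPs digest collagens, laminins and other components of the extracellular matrix, and most are made as inactive precursors. ADAMs sit in the cell membrane and release the outer parts of other membrane proteins, such as growth factor precursors and Notch receptors, while ADAMTS enzymes are secreted and process proteoglycans, procollagens and von Willebrand factor. TIMPs are small secreted proteins that bind the active site and block it, and the balance of enzymes and inhibitors is studied in tumour invasion.

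Levels are log2 values made by the authors with RMA, which subtracts background, brings arrays to one scale and combines the probes of a probe set into a single value. The brightest probe set, that is the one with the highest mean of both arrays, stood for its gene, and a difference is always EGR1 array minus empty-vector array in log2 units. The floor for dim genes was a mean level of 5.22, the 40th percentile of all probe sets. It is not a detection call, and levels of different genes were not compared with each other. A higher level may stand for more RNA per cell or for more cells that carry the RNA, which cannot be told apart in a bulk sample. The spread between probe sets of the same gene was the only repeat measurement. Its pooled SD was 0.15 on the log2 scale over the 7113 genes that had several probe sets past the floor, and this leaves out error between cultures and arrays.

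Of the EGR1 probe sets, 11717861_a_at read 11.43 in the EGR1 array and 7.70 in the empty-vector array, and 11751643_x_at read 9.92 in the EGR1 array and 7.17 in the empty-vector array. The other 4 of 6 were lower in the EGR1 array, with log2 differences from -0.39 to -0.20. Among these 4 was the brightest of the 6, 11717860_a_at, so the brightest-probe-set rule would give EGR1 itself a difference of -0.39. In the epithelial markers, KRT8 and KRT18 were past the floor and higher in the EGR1 array (log2 differences of 2.00 and 1.76). KRT19 was past the floor too, at 0.24, whereas EPCAM and CDH1 were under it and lower in the EGR1 array, at -0.39 and -0.29. The 5 simple-epithelium markers averaged 7.10 in the EGR1 array and 6.44 in the empty-vector array, with a median log2 difference of 0.24. Of 5 lung epithelial markers 4 were past the floor, with a mean of 5.99 in the EGR1 array and 5.88 in the empty-vector array. Of 6 fibroblast markers 5 were under the floor (mean 4.36 in the EGR1 array and 4.37 in the empty-vector array), and of 5 leukocyte markers 3 were under it, PTPRC included (mean 4.74 in the EGR1 array and 4.70 in the empty-vector array). Of 4 endothelial markers 3 were past it, with means of 5.48 in the EGR1 array and 5.45 in the empty-vector array. The part of these keratin differences in the values below was not tested.

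Among the metalloproteinases and their inhibitors, 2 genes were at or beyond 2-fold, both higher in the EGR1 array, and most others were under 1.5-fold. The inhibitor TIMP1 was 2.56-fold and the gelatinase MMP9 2.13-fold higher, the membrane protease ADAM15 was 1.61-fold higher, and ADAM22, an ADAM without protease activity, was 1.53-fold lower. Of the 64 genes 36 were past the floor, and 4 of these 36 (11.1%) were at or beyond 1.5-fold in either direction, against 1.17% of all 12652 genes past the floor. Split by direction, 3 were higher and 1 was lower, against 0.941% and 0.229% of all genes. At or beyond 2-fold there were 2 of 36 (5.56%), against 0.356% of all genes; both were higher and none was lower, against 0.348% and 0.0079% of all genes. The members' shares were above the background at both thresholds, but they rest on 4 genes and on 1 array per group. Members and thresholds were also chosen with earlier results of these data known, so these shares are no test of an excess. With the mean of all its probe sets standing for each gene, 2 of 21 members past the floor were at 1.5-fold (9.52%, against 1.04% of 10872 genes) and 1 at 2-fold (4.76%, against 0.294%). By the brightest probe set the other 32 lay under 1.5-fold; of the 36, 17 differed by less than the probe-set SD of 0.15 and 19 by as much or more.

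The medians of the 4 families lay within 0.23 of each other, in the order TIMP, ADAMTS, MMP and ADAM. The median log2 difference was 0.21 over the 4 TIMP genes, 0.11 over the 18 ADAMTS genes, 0.10 over the 22 MMP genes and -0.03 over the 20 ADAM genes, against 0 over all 18132 genes. Every TIMP gene was above 0. Above 0 were also 14 of 22 MMP genes, 11 of 18 ADAMTS genes and 8 of 20 ADAM genes, against 47.6% of all genes. The medians of ADAMTS and MMP genes differed by -0.01 (MMP minus ADAMTS). The widest gap, that of ADAM minus TIMP, was -0.23. With the mean of all its probe sets standing for each gene, the ADAM median turned to 0.07 and the ADAMTS median was 0.03, so the order of these families has no firm footing. In 3 genes, MMP8, MMP26 and ADAM18, the brightest probe set read the same in both arrays to the last digit, beside 814 of all 18132 genes.

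**Figure D1:**
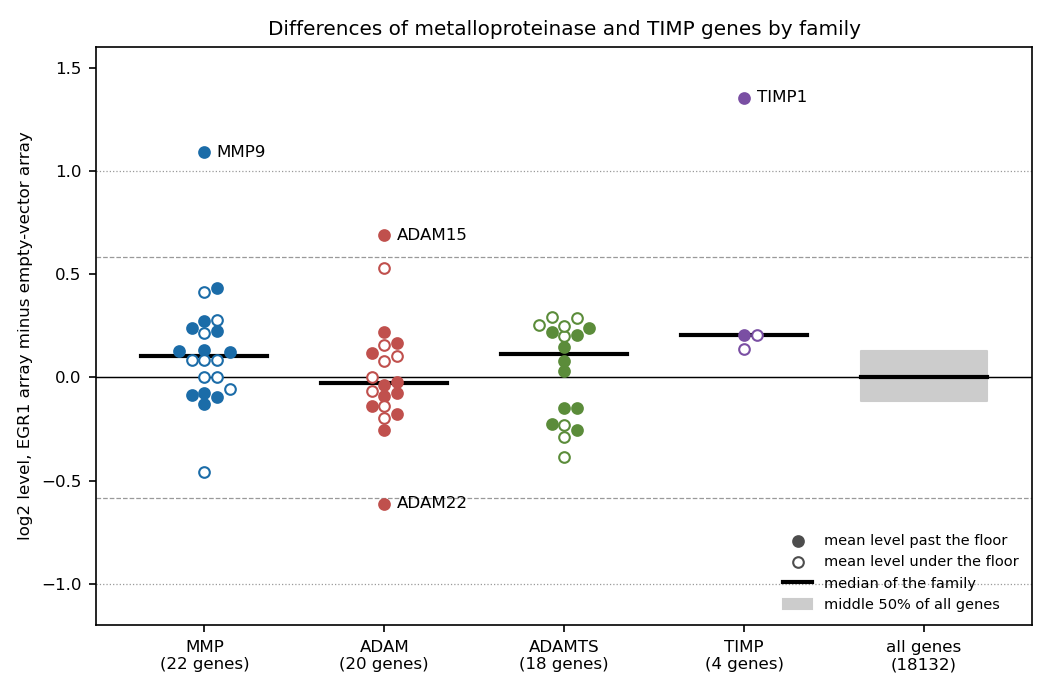
Log2 difference (EGR1 array minus empty-vector array) of each metalloproteinase and TIMP gene by its brightest probe set, by family; filled points are genes past the floor, open points genes under it, thick lines family medians, and the grey box holds the middle 50% of all 18132 genes. Dashed lines mark 1.5-fold and dotted lines 2-fold; TIMP1 (1.35) and MMP9 (1.09) lie beyond 2-fold, ADAM15 (0.69) and ADAM22 (-0.61) beyond 1.5-fold, and the other genes past the floor lie between the dashed lines.

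TIMP1 was the member with the largest difference. TIMP1, which inhibits most MMPs and is secreted by many cell types, read 12.29 in the EGR1 array and 10.93 in the empty-vector array by its brightest probe set, 11715360_x_at, a log2 difference of 1.35. It ranked 24 from the top among the 12652 genes past the floor. The second probe set, 11715359_a_at, read 12.17 in the EGR1 array and 10.73 in the empty-vector array, a log2 difference of 1.43. The third, 11763761_a_at, lay far nearer the floor and did not share this difference, with 5.76 in the EGR1 array and 5.65 in the empty-vector array. The TIMP1 probe sets thus disagreed by 1.32 on the log2 scale, from 0.11 to 1.43, although all 3 were on the same side of 0. The mean over the 3 was 0.97, just under 2-fold.

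The other inhibitors differed by small amounts, all toward the EGR1 array. TIMP2, which inhibits MMPs and also takes part in the activation of proMMP2 by MMP14, read 9.65 in the EGR1 array and 9.44 in the empty-vector array. Its 2 probe sets gave nearly the same log2 difference, 0.20 and 0.21, so the value was repeatable between probe sets but small (1.15-fold). TIMP3, the matrix-bound inhibitor that also blocks ADAM17, was under the floor, with 4.29 in the EGR1 array and 4.16 in the empty-vector array, and its 3 probe sets ranged from -0.07 to 0.30. TIMP4 was under the floor as well, with 4.002 in the EGR1 array and 3.795 in the empty-vector array. Of the 4 inhibitors, therefore, TIMP1 alone was at or beyond 1.5-fold, and TIMP2 was the only other one past the floor.

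The promoter of TIMP1 is shown because this gene differed most. In the RefSeq annotation (GRCh38.p14) TIMP1 lies on chromosome X, on the plus strand, inside the gene SYN1, which is read from the other strand. The single SYN1 probe set read 5.73 in the EGR1 array and 5.42 in the empty-vector array, a log2 difference of 0.30. The 250 bases before the TIMP1 start, chrX:47582186-47582435 on the plus strand, follow from 5′ to 3′ and have a GC content of 64.8%. Capitals mark the GC box GGGCGG, bound by SP factors, and the AP-1-like motif TGAGTAA, each on either strand. Both motifs were added to the search after the promoters were read, so their matches here are a description and no test.
TIMP1: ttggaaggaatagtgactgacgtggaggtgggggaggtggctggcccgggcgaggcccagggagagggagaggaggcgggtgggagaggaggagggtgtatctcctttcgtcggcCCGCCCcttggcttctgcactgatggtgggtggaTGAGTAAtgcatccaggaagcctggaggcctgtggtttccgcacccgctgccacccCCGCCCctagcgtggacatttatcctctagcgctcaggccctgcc
This stretch held 2 GC boxes, both as the reverse complement CCGCCC, and 1 TGAGTAA, 101 bases before the start. Windows of 300 bases, from 250 before to 50 after the start, were searched for these motifs, for the EGR1 motifs GCGTGGGCG and GCGGGGGCG and for the AP-1 motif TGAGTCA. Over all 35116 windows of the RefSeq set, 45.0% held GGGCGG, 2.57% TGAGTAA, 5.77% an EGR1 motif and 4.95% TGAGTCA. The GC box can overlap the EGR1 motif GCGGGGGCG only in part of its letters, and both were counted separately. Windows were in the table for 37 of the 64 members. Of these 2 held an EGR1 motif, MMP24 and ADAMTS10, 1 held TGAGTCA (MMP7), 1 held TGAGTAA (TIMP1) and 24 held a GC box. The shares with an EGR1 motif (5.41%) and with TGAGTCA (2.70%) were near or below those of all windows, and that with a GC box (64.9%) was above. By family a GC box was in 36.4% of 11 MMP, 58.3% of 12 ADAM, 90.9% of 11 ADAMTS and 100% of 3 TIMP windows. Members counted 1 window a gene, whereas the 35116 windows can hold several of a gene, so these shares are not fully alike. MMP24 differed by 0.13, and ADAMTS10 and MMP7 were under the floor. A match is a run of letters and not a binding site, and MMP9 and TIMP2 had no window here.

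Of the MMPs, the gelatinase MMP9 differed most. MMP9, which cuts denatured collagen and the type IV collagen of basement membranes, read 6.67 in the EGR1 array and 5.58 in the empty-vector array, a log2 difference of 1.09. Its rank was 35 from the top among genes past the floor. This value has no second probe set to set against it, and the empty-vector level lay only slightly above the floor of 5.22. The other gelatinase, MMP2, read 5.67 in the EGR1 array and 5.40 in the empty-vector array, a log2 difference of 0.27, and its 4 probe sets, of which the other 3 were under the floor, went both ways, from -0.25 to 0.27. MMP2 is thus a gene with no settled direction in these arrays.

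The membrane-type MMPs, which are anchored in the cell surface and cut matrix close to the cell, were all past the floor and none reached 1.5-fold. MMP15 had the largest difference of the 6, with 6.22 in the EGR1 array and 5.78 in the empty-vector array (1.35-fold higher), and its other probe set differed by 0.22. MMP14, the main activator of proMMP2 and itself a collagenase, read 8.19 in the EGR1 array and 8.06 in the empty-vector array, and its 4 probe sets ranged from -0.06 to 0.13. MMP16 and MMP24 differed by 0.12 and 0.13. The GPI-anchored MMP17 and MMP25 lay slightly below 0, at -0.10 and -0.08. The subgroup therefore held 4 genes above 0 and 2 below, with a median of 0.12.

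Collagenases, stromelysins and matrilysins were mostly dim. Of the collagenases, which cut intact fibrillar collagen, MMP1 was past the floor, with 6.47 in the EGR1 array and 6.60 in the empty-vector array. Both MMP1 probe sets were slightly lower in the EGR1 array, at -0.13 and -0.17. MMP8 and MMP13 were under the floor, and the 5 MMP13 probe sets ranged from -0.23 to 0.08. Of the stromelysins, MMP11, an enzyme that furin activates inside the cell, read 7.09 in the EGR1 array and 6.85 in the empty-vector array, and its other probe set differed by 0.12. MMP3 and MMP10 lay under the floor and on opposite sides of 0. MMP3 read 3.26 in the EGR1 array and 2.85 in the empty-vector array, whereas MMP10 read 3.39 in the EGR1 array and 3.85 in the empty-vector array. The matrilysins MMP7 and MMP26 were under the floor, and MMP7 read 4.27 in the EGR1 array and 4.32 in the empty-vector array. Of the 6 remaining MMPs, MMP19 (0.23) and MMP28 (-0.08) were past the floor and MMP12, MMP20, MMP21 and MMP27 were under it.

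The MMP genes that lie together on chromosome 11 were mostly under the floor. In RefSeq order they are MMP7, MMP20, MMP27, MMP8, MMP10, MMP1, MMP3, MMP12 and MMP13. Of these 9 only MMP1 was past the floor, and their differences ran from -0.46 (MMP10) to 0.41 (MMP3) with a median of 0.08. MMP10 and MMP3, the neighbours of MMP1 on either side, went different ways. The remaining MMP genes, on other chromosomes or, for MMP26, at the other end of chromosome 11, held the other 11 past the floor.

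**Figure D2:**
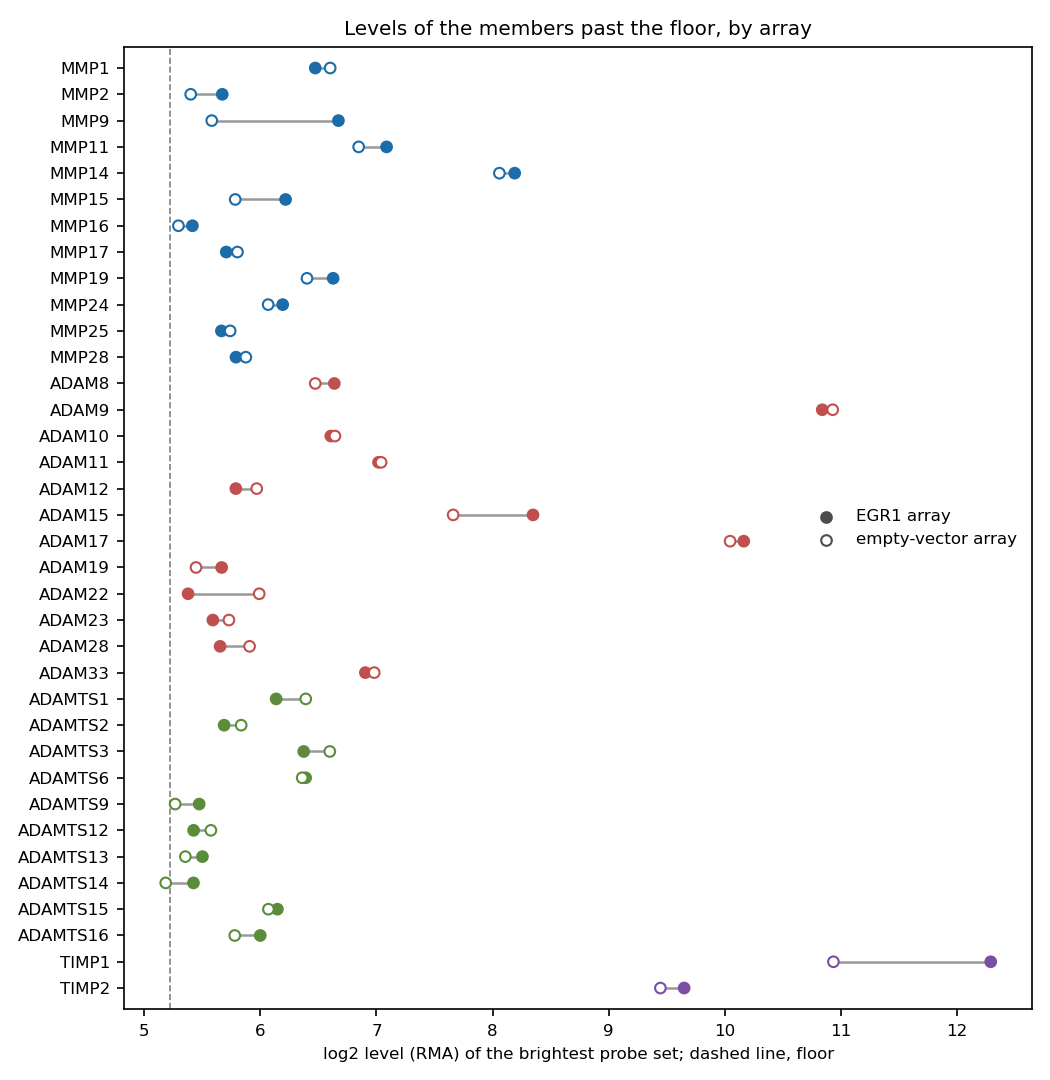
Log2 RMA level of the brightest probe set of the 36 members past the floor, with filled points for the EGR1 array and open points for the empty-vector array; a line joins both arrays of a gene, and levels of different genes are not comparable. TIMP1 (12.29 in the EGR1 array, 10.93 in the empty-vector array) and MMP9 (6.67 in the EGR1 array, 5.58 in the empty-vector array) have the longest lines, and the other pairs lie closer together.

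Of the ADAMs, ADAM15 and ADAM22 were at or beyond 1.5-fold, in opposite directions. ADAM15, a membrane protease with an integrin-binding disintegrin domain, read 8.35 in the EGR1 array and 7.66 in the empty-vector array, a log2 difference of 0.69. A pair of its probe sets, 11719513_a_at and 11755474_a_at, gave exactly these values. The other 4 of its 6 probe sets were higher by less, from 0.22 to 0.37, and the mean over all 6 was 0.42, under 1.5-fold. All ADAM15 probe sets were thus on the same side of 0, but the size depended on the probe set. EFNA4, which is next to ADAM15 and joined to it in a read-through transcript that RefSeq lists, had a log2 difference of 0.24 by its 1 probe set.

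ADAM22, a neuronal receptor for the secreted protein LGI1 that has no protease activity, read 5.38 in the EGR1 array and 5.99 in the empty-vector array, a log2 difference of -0.61. It ranked 19 from the bottom among genes past the floor. Its other 3 probe sets were under the floor and also below 0, from -0.20 to -0.07. The mean over the 4 was -0.26, which is under 1.5-fold.

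The promoters of ADAM15 and ADAM22 are shown because they are the other members at or beyond 1.5-fold that the RefSeq table holds. Both stretches cover the 250 bases before the start on the plus strand (GRCh38.p14), chr1:155051066-155051315 for ADAM15 and chr7:87934001-87934250 for ADAM22, and capitals again mark GGGCGG on either strand.
ADAM15: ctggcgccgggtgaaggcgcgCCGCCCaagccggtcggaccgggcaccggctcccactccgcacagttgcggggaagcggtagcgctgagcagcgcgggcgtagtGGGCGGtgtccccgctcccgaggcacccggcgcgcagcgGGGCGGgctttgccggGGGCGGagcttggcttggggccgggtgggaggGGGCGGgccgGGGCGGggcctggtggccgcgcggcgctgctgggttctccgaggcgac
ADAM22: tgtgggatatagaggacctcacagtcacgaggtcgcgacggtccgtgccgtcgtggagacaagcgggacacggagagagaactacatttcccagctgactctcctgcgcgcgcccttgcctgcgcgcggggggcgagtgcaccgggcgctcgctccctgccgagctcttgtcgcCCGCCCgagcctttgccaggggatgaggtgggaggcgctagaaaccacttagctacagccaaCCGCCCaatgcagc
ADAM15, which was higher, held 6 GC boxes and a GC content of 79.6%, and ADAM22, which was lower, held 2 GC boxes and a GC content of 65.6%. Neither held an EGR1 motif, TGAGTCA or TGAGTAA, and the same was true of TIMP1 for the EGR1 motifs and TGAGTCA. The median GC content of the same stretch was 58% over 27305 windows, 1 for each gene symbol in the table, 71% over the 12 ADAM, 69.2% over the 11 ADAMTS and 41.6% over the 11 MMP genes with a window.

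The main sheddases of the family differed by small amounts. ADAM10, which cleaves Notch receptors and cadherins, read 6.61 in the EGR1 array and 6.64 in the empty-vector array, and its 4 probe sets ranged from -0.04 to 0.12. ADAM17, which releases TNF and several EGF-receptor ligands, read 10.16 in the EGR1 array and 10.04 in the empty-vector array, and none of its 4 probe sets was below 0. ADAM9 read 10.84 in the EGR1 array and 10.93 in the empty-vector array, and all 4 probe sets were slightly below 0, from -0.15 to -0.06. These 3 differences were smaller than the probe-set SD.

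The next ADAMs by size had probe sets that went both ways. ADAM19, a protease that cleaves neuregulin, read 5.67 in the EGR1 array and 5.45 in the empty-vector array, but another probe set past the floor gave -0.22 against 0.22 for the brightest. ADAM28 read 5.65 in the EGR1 array and 5.91 in the empty-vector array, while its dim probe sets reached 0.46 and the mean of all 4 was 0.15. Both genes therefore have no settled direction. ADAM8, ADAM12 and ADAM33, all past the floor, differed by 0.16, -0.18 and -0.08 and also had probe sets on both sides of 0. Of the 7 ADAM33 probe sets 6 were above 0, up to 0.24, and only the brightest was below. ADAM20, ADAM21 and ADAM30 were under the floor. Among the 12 ADAMs known to hold the zinc-binding site 6 were above 0 and 6 below (median 0.02), and among the 8 known to lack it 2 were above and 5 below (median -0.08). This grouping was made from general knowledge after the values were seen. ADAM11 and ADAM23, the close relatives of ADAM22, differed by -0.02 and -0.14. The sperm proteins ADAM2, ADAM18, ADAM29 and ADAM32 and the pseudogene ADAM3A were under the floor.

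Of the 18 ADAMTS genes 10 were past the floor and none of these was at or beyond 1.5-fold, which in 10 genes is near the 1.17% of all genes. Of the hyalectanases, which cut aggrecan and versican, ADAMTS1 had 6.14 in the EGR1 array and 6.39 in the empty-vector array. Its log2 difference of -0.25 was the lowest of the family past the floor, and its other probe set, under the floor, gave 0.04. ADAMTS4 was just under the floor in the mean, with 5.24 in the EGR1 array and 4.95 in the empty-vector array, and ADAMTS5 was dim, with 3.90 in the EGR1 array and 4.13 in the empty-vector array. The 7 hyalectanases ran from -0.38 (ADAMTS20, under the floor) to 0.29 (ADAMTS4), with 4 above 0 and 3 below, and ADAMTS8 (0.20) was also under the floor.

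The procollagen N-proteinases, which trim the amino ends of fibrillar procollagens, were all past the floor and split. ADAMTS3 read 6.37 in the EGR1 array and 6.60 in the empty-vector array, with probe sets from -0.28 to 0.38. ADAMTS14 read 5.42 in the EGR1 array and 5.19 in the empty-vector array, and its other probe set gave 0.22. ADAMTS2 differed by -0.15, with its other probe set at 0.18. Only ADAMTS14 thus had probe sets that kept to the same side of 0, at levels close to the floor. In each of these genes only the brightest probe set was past the floor.

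Among the other ADAMTS genes, ADAMTS16 read 5.999 in the EGR1 array and 5.780 in the empty-vector array, and its other probe set differed by 0.13. ADAMTS13, which cuts von Willebrand factor, read 5.50 in the EGR1 array and 5.35 in the empty-vector array, and its other probe set differed by 0.18. ADAMTS16 and ADAMTS13 were higher by small amounts in both of their probe sets, but the second ADAMTS13 probe set was under the floor. The difference of the brightest ADAMTS13 probe set was smaller than the probe-set SD. ADAMTS6 and ADAMTS12 were past the floor too, at 0.03 and -0.15, as were the hyalectanases ADAMTS9 (0.21) and ADAMTS15 (0.08). Of the 8 ADAMTS genes in neither subgroup 6 were above 0 and 2 below, and ADAMTS10, ADAMTS17, ADAMTS18 and ADAMTS19 were under the floor.

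Members with several probe sets were counted over all of these, including probe sets under the floor. Some disagreements in direction rest on such dim probe sets. In MMP2, ADAM28 and ADAMTS3 only the brightest probe set was past the floor. Of 43 genes with 2 or more probe sets, 19 had probe sets on both sides of 0 and 19 had all of them on the same side; in the remaining 5 at least 1 probe set read exactly the same in both arrays. Probe sets on both sides of 0 were found in 4 of 13 MMP, 7 of 12 ADAM, 7 of 15 ADAMTS and 1 of 3 TIMP genes. At or beyond 1.5-fold were 6 of the 160 probe sets, 2 of TIMP1, 2 of ADAM15 and 1 each of MMP9 and ADAM22. The 2 of ADAM15 gave identical values and so are not separate readings. In 11 probe sets both arrays had the same value to the last digit. The counts of this paragraph were not made over all genes or all probe sets. They have no background to be set against and describe the members only.

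**Figure D3:**
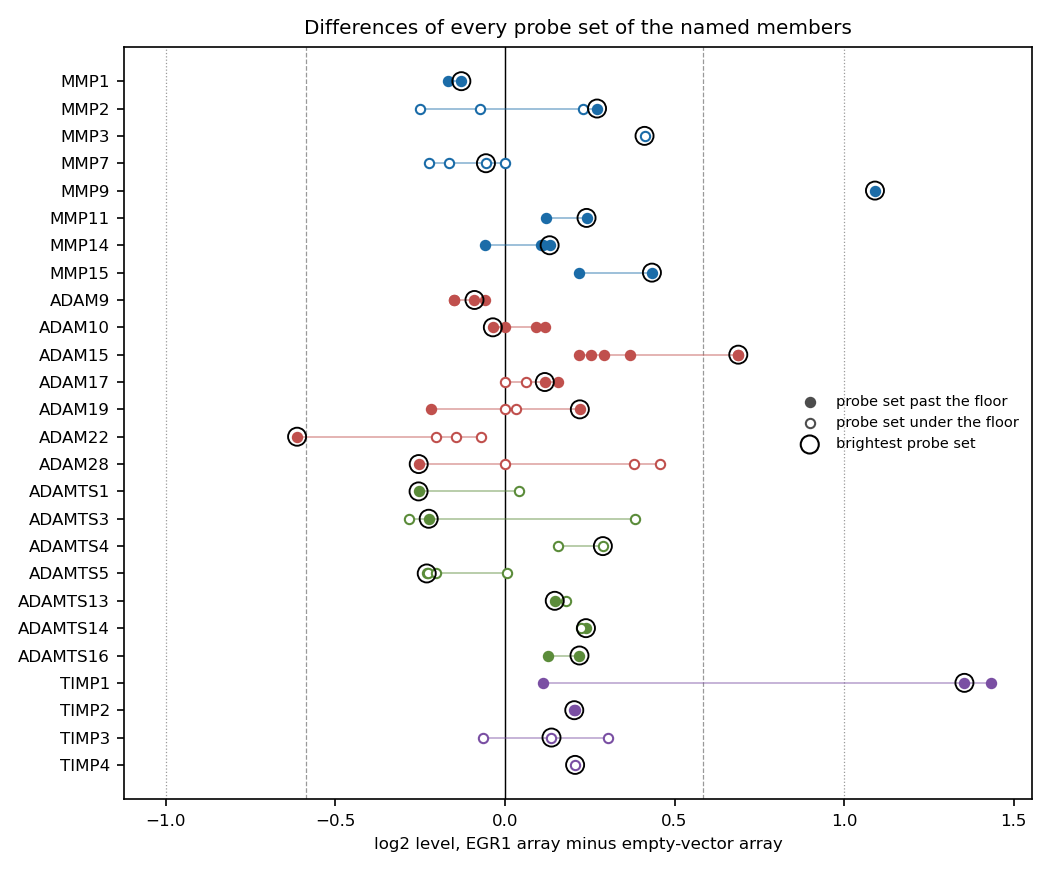
Log2 difference (EGR1 array minus empty-vector array) of every probe set of the 26 named members; filled points are probe sets past the floor, open points those under it, and a black ring marks the brightest, which stands for the gene. Dashed lines mark 1.5-fold and dotted lines 2-fold; 2 of the 3 TIMP1 probe sets lie beyond 2-fold and the third at 0.11, and MMP2, ADAM19, ADAM28 and ADAMTS3 lie on both sides of 0.

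Genes that regulate these enzymes were described by lists drawn from general knowledge, with earlier results of these data known. Of the regulators and activators of MMPs, none of 7 past the floor was at or beyond 1.5-fold, near the 1.17% of all genes, and the median over 11 genes was 0.10. The serine protease inhibitor TFPI2 was 1.35-fold higher (10.87 in the EGR1 array and 10.44 in the empty-vector array), although its 3 probe sets ranged from 0.05 to 0.43. The membrane-anchored MMP inhibitor RECK differed by 0.24 and furin (FURIN), the convertase that activates membrane-type MMPs and many ADAMs, by 0.21. RECK probe sets went both ways. In the plasminogen activation list, whose product plasmin activates several MMPs, none of 5 past the floor reached 1.5-fold, again near that share (median -0.01 over 6 genes). Tissue plasminogen activator (PLAT) read 8.04 in the EGR1 array and 7.75 in the empty-vector array, and urokinase (PLAU) read 10.43 in the EGR1 array and 10.53 in the empty-vector array. The plasmin inhibitor SERPINF2 differed by -0.24, with 5.15 in the EGR1 array, which is under the floor, and 5.39 in the empty-vector array. Its other probe set differed by 0.

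The lists of ADAM10 and ADAM17 partners and of proteins shed by ADAMs had medians of 0.10, with single genes at or beyond 1.5-fold. Of the iRhom and tetraspanin partners 1 of 9 past the floor was at or beyond 1.5-fold, against 1.17% of all genes (median 0.10). This was TSPAN17, a tetraspanin that binds ADAM10, with 8.04 in the EGR1 array and 7.18 in the empty-vector array by its 1 probe set. FRMD8, which stabilises the iRhom complex, differed by 0.42 with probe sets from -0.05 to 0.42, and the ADAM10 partner TSPAN5 by -0.36. Of the proteins shed by ADAMs 2 of 16 past the floor reached 1.5-fold, against 1.17% of all genes (median 0.10 over 23 genes), and both are Notch ligands. DLL1 read 6.73 in the EGR1 array and 5.77 in the empty-vector array, and JAG1 read 9.11 in the EGR1 array and 8.22 in the empty-vector array. Both had probe sets on either side of 0. The syndecan SDC4 was 1.45-fold higher, with 3 probe sets between 0.37 and 0.53.

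The AP-1 and ETS list holds transcription factors known to act on MMP and TIMP promoters, and 2 of its 15 genes past the floor reached 1.5-fold, against 1.17% of all genes (median 0.07 over 16 genes). The AP-1 subunit FOS read 10.22 in the EGR1 array and 9.12 in the empty-vector array, and its 4 probe sets ranged from 0.75 to 1.10. JUNB, another AP-1 subunit, read 8.53 in the EGR1 array and 7.62 in the empty-vector array by its 1 probe set. The ETS factor ETV4 was 1.32-fold higher. Past the floor 10 genes of the list were above 0 and 5 below. The AP-1 subunit FOSL1 was lower, with 10.11 in the EGR1 array and 10.34 in the empty-vector array, and all 6 probe sets were below 0. The ETS factors ELK3 and ETV1 both differed by -0.29. TGAGTCA, searched for above, is a motif of AP-1, and no ETS motif was searched for.

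Matrix substrates and other proteases had no gene at or beyond 1.5-fold past the floor, which in lists this short is near the 1.17% of all genes. Past the floor were 11 matrix substrates (median 0.05 over 18 genes), 9 other metzincins and ADAMTS-like proteins (median 0.02 over 16) and 9 cathepsins and cystatins (median 0.05 over 11). The cartilage protein COMP differed by 0.33, versican (VCAN), a substrate of ADAMTS1, by -0.24 with all 9 probe sets below 0, and type VII collagen (COL7A1) by 0.22. The procollagen C-proteinase BMP1 was 1.31-fold higher, with probe sets from 0.06 to 0.39, while THSD4 differed by -0.30 and ASTL by -0.27. The cathepsins CTSK and CTSB differed by 0.27 and 0.19 and the cystatin CSTB by 0.17.

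**Figure D4:**
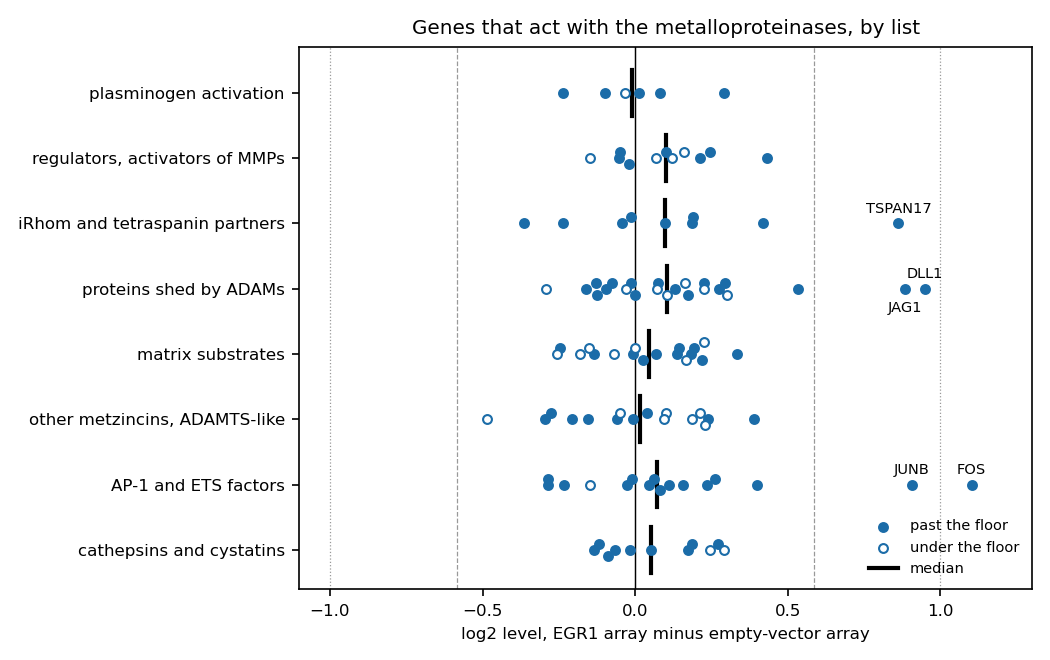
Log2 difference (EGR1 array minus empty-vector array) by the brightest probe set of genes that regulate, partner or are cut by the metalloproteinases, by list; filled points are genes past the floor, open points genes under it, and thick bars are list medians. Dashed lines mark 1.5-fold and dotted lines 2-fold; FOS (1.10), DLL1 (0.95), JUNB (0.91), JAG1 (0.88) and TSPAN17 (0.86) are the genes beyond 1.5-fold, and the list medians lie between -0.01 and 0.10.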

How the data were processed

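The deposited table holds log2 probe-set levels that the authors made with RMA, per the submitters' processing notes. Software, settings, array batch and genome build of that step are not given in the sources used. Names came from the platform annotation, and all 64 members matched a RefSeq gene table (GRCh38.p14) by Entrez ID. Probe sets with several gene symbols were left out, among them 2 that list a member. For tied probe sets the first identifier was taken. Of 18132 genes 12652 were past the floor, and counts at 1.5-fold and 2-fold were taken over these. No test was possible with 1 array per group, and the number of arrays limits the precision. Members, lists, thresholds and named genes were chosen with earlier results of these data known. Named were all members at or beyond 1.5-fold, the 4 largest absolute differences past the floor in each family, 18 set by name, and up to 3 of each further list. FOSL1, ELK3 and ETV1 were added as lower genes of the AP-1 and ETS list. The planned split of ADAMs by a protein motif was replaced by a list from general knowledge, and GGGCGG and TGAGTAA were added after the promoters were read. The selection and counting steps were tested on simulated data. Python 3.11.15, pandas 2.3.3 and statsmodels 0.14.6 (lowess, fraction 0.3) were used.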

Additional observations from a re-analysis of the deposited data

How the results depend on the processing

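The 4 families and the 26 named members were recomputed with the mean of all probe sets, without probe sets ending in _x_at or _s_at, after a lowess correction and after centring on the median of genes past the floor, and the counts also with other floors. Under that mean the medians were 0.064 for MMP, 0.068 for ADAM (below 0 otherwise) and 0.028 for ADAMTS genes, 0 ADAM genes and 2 genes in all (TIMP1 and MMP9) were at 1.5-fold, and 1 (MMP9) at 2-fold. Over members past the floor alone the medians were 0.054 for ADAMTS and 0.78 for TIMP genes. With the floor at the 50th percentile 1 ADAM gene was at 1.5-fold, since ADAM22 (mean level 5.68) is under that floor of 5.78. Of 103 values of single named members 94 moved by less than the probe-set SD and 9 by more, 8 of these under the mean of all probe sets. Many of the 94 could not move by that much. Centring adds 0.0161 to every gene, and a gene with 1 probe set keeps its value under the mean. A gene whose brightest probe set does not end in _x_at or _s_at keeps its value without those probe sets. ADAM10 (0.04), ADAM28 (0.15) and ADAMTS1 (0.04 without _x_at and _s_at probe sets) changed sign. Lowess moved no member by the probe-set SD, and centring could not. No paired analysis was possible because each group held 1 array.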
